A study of Mus musculus with 4 samples.

Results

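Broad islands of DNMT3B enrichment that also hold a narrow enriched region were examined in lung metastases of 4T1, a BALB/c mouse mammary tumour line. They were chosen by position: an island of the SICER list, made for broad enrichment, was taken where it shared at least 1 bp with a distinct region of the MACS list, made for narrow enrichment. This gave 397 of 8242 islands (4.82% of the list), which held 521 of the 1704 distinct narrow regions, and the other 7845 islands served for comparison. The series comprised 2 chromatin immunoprecipitation libraries with an antibody against DNMT3B and 2 input libraries without antibody, and the lung labels 3 and 5 occur once in each kind. All 4 came from metastases of this line in mice of the BALB/c strain, with no other treatment or genotype given, and nothing in the labels says whether the lungs are from separate mice. Metastatic tissue can also hold host lung, blood and vessel cells, and the labels name no step that removes them. The lists give positions and gene names but no read count, score or value per library, so the depth is unknown, libraries could not be compared, and counts below describe 2 lists of positions. Cell identity could not be checked against marker levels for the same reason.

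DNMT3B is a de novo DNA methyltransferase: it adds methyl groups to cytosines, mostly where a cytosine is followed by a guanine (a CpG). CpG-rich stretches at gene starts are usually kept free of methylation in normal tissues, and some gain it in tumours. The enzyme is known to be drawn to the bodies of transcribed genes through its PWWP domain, which binds a histone mark of elongation.

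Members were most often found at gene starts, so promoter sequences of 6 genes are shown first. The listed start of each gene lay in a member island with a narrow region within 1 kb. Irs1, Cdk6, Notch1 and Irs2 had 3 or 4 regions in that island, Socs1 had 2, and Triobp was paired with the widest member. The Triobp sequence below is CpG-poor, but it may belong to another start of the gene. The listed minus GRCm38 position was -134.239 kb at Triobp and -169.571 kb at the neighbouring gene Ankrd54. The Triobp promoter printed here is therefore not shown to lie in the island. Irs1 and Irs2 encode adaptors of the insulin receptor, Cdk6 a kinase of the G1 phase, Notch1 a receptor, Socs1 an inhibitor of cytokine signalling and Triobp an actin-binding protein. The sequences are the RefSeq promoters of assembly GRCm38.p6, from 250 bases before to 50 after a gene start, 5′ to 3′ along the gene, with each CpG in capitals. Their coordinates belong to GRCm38, and those of the lists mostly do not, as described further on. They stood at chr1:82291390-82291689 (minus strand) for Irs1, chr5:3343643-3343942 (plus strand) for Cdk6, chr2:26503773-26504072 (minus strand) for Notch1, chr8:11008880-11009179 (minus strand) for Irs2, chr16:10785487-10785786 (minus strand) for Socs1 and chr15:78947474-78947773 (plus strand) for Triobp.
Irs1: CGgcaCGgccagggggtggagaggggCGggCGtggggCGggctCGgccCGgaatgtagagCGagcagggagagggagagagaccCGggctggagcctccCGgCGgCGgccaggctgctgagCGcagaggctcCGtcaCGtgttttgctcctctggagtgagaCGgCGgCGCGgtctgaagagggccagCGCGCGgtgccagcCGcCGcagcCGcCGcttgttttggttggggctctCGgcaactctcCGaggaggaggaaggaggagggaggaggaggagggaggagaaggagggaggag
Cdk6: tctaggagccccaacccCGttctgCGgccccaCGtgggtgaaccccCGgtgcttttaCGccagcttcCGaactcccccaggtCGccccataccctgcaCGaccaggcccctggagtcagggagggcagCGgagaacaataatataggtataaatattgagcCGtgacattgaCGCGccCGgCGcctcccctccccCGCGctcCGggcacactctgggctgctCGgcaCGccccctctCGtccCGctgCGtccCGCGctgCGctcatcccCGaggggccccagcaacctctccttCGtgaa
Notch1: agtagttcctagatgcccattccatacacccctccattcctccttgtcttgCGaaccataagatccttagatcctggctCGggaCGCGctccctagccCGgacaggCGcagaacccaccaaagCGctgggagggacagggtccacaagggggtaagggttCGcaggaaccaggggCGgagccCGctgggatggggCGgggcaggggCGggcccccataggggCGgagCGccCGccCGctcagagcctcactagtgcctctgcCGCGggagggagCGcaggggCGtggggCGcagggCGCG
Irs2: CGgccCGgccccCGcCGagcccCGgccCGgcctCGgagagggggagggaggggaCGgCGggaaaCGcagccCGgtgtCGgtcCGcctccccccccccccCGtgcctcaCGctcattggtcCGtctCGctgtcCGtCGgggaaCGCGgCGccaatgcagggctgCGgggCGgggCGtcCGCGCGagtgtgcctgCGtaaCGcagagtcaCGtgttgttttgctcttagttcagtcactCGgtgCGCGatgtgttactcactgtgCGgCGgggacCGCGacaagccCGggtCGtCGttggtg
Socs1: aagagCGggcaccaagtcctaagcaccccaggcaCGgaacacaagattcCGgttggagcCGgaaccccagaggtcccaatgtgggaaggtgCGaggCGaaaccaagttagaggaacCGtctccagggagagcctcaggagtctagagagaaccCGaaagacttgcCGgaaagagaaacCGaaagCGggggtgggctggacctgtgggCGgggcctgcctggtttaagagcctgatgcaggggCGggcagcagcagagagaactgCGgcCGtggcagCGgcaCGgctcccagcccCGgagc
Triobp: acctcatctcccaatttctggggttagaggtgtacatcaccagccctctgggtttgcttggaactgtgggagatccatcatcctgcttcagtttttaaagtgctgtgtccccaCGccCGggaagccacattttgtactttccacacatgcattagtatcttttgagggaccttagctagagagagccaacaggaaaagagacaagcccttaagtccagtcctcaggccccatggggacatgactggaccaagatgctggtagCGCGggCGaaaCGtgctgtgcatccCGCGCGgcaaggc
The 300 bases held 28 CpGs at Irs1, 27 at Cdk6, 23 at Notch1, 41 at Irs2, 18 at Socs1 and 9 at Triobp. The ratio of observed to expected CpGs, which corrects for the number of C and G, was 1.06 at Irs2, 0.851 at Cdk6, 0.827 at Irs1, 0.660 at Notch1, 0.614 at Socs1 and 0.422 at Triobp.

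Promoters of genes whose start lay in a member island were rich in CpGs. For a gene with several promoter entries the first was used, and it was not matched to the start inside the island. Some promoters therefore belong to another start of the gene. At Synj2, the listed start was 5941279 and the promoter used ran from 5975330 to 5975629. The table of promoters held 158 of the 194 protein-coding genes whose start lay in a member island. Their median was 23 CpGs in 300 bases (quartiles 17.25 and 29), and their median observed to expected ratio was 0.767 (quartiles 0.650 and 0.905). For the 763 genes whose start lay in an island without a region the medians were 19 CpGs and a ratio of 0.699, and for all 17492 protein-coding genes in the table they were 13 and 0.576. A ratio of at least 0.6 was found in 128 of the 158 promoters (81.0%), in 62.6% where the island held no region and in 48.3% of all. Where a narrow region itself lay within 1 kb of the start, 119 of 139 promoters (85.6%) reached it. Genes paired with a member island away from their start gave a share of 59.1% (78 of 132), and those paired with other islands away from their start 68.3%. The medians of the former were 17 CpGs and a ratio of 0.689. Those of the latter, 21 and 0.747, were close to the 23 and 0.767 of starts in members. Among 4 motifs searched on both strands, GGGCGG, which is bound by Sp1 family factors and contains a CpG, was in 72.2% of the 158 promoters, 64.6% where the island held no region and 46.3% of all. CACGTG, the E-box bound by Myc and Max and again with a CpG, was in 15.2%, 10.7% and 7.90%. CCAAT was in 35.4%, 32.6% and 39.0%, and TATAAA in 5.70%, 7.73% and 13.3%. Away from the start, GGGCGG was in 68.9% with a member island and 65.6% with other islands, and CACGTG in 6.82% and 10.1%. For CCAAT it was 37.1% and 36.6%, and for TATAAA 5.30% and 6.07%. These differences in sequence are counts with no test, and a match is not a bound site.

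**Figure D1:**
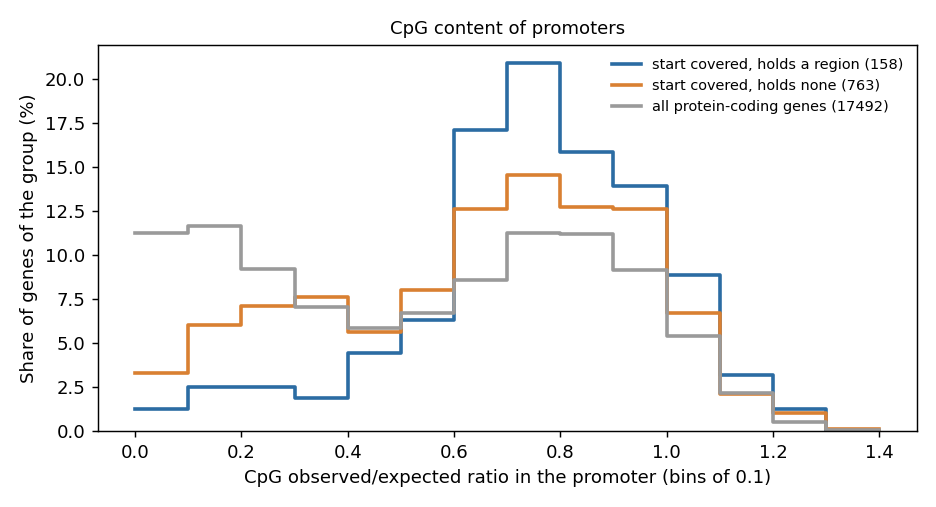
Ratio of observed to expected CpGs in promoters of 300 bases (x axis, bins of 0.1) against the share of genes in percent (y axis), for genes whose start lay in an island that holds a narrow region (158), in another island (763) and for all protein-coding genes (17492). The first line is lowest under a ratio of 0.4 and highest between 0.6 and 0.9, with a median of 0.767 against 0.699 and 0.576.

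Most members held a single narrow region. There were 308 islands with 1 region, 66 with 2, 14 with 3, 6 with 4, 2 with 5 and 1 with 6, and 1 region reached into 2 islands, which gives 522 pairs. Of these pairs, 512 had the region wholly inside the island. Positions in the narrow list carry at most 6 significant digits, so regions were rounded to 10, 100 or 1000 bp, and 146 of the 521 held regions had equal start and end. At the edge of the rule, 125 members shared fewer than 10 bp with every region they held. The islands at Kansl1 and 4732490B19Rik were among them, each sharing 1 base with a region listed as 1 position and rounded to 1000 bp. The island at Ntn1 shared 1 base with the first of its 2 regions. Islands at Mxd4, Btbd2 and Vac14 lay 1 bp from a region and were not members, and 11 islands without a region had one within 200 bp. With at least 100 bp required to be shared, 256 islands were left in place of 397, a loss that falls on regions whose listed width is under that length.

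Members were wide islands, although a wider island has more room for a region. Their median width was 7400 bp (quartiles 4400 and 11600, range 600 to 60000 bp), against 4600 bp for the others (quartiles 3000 and 7400). They made up 7.85% of the summed island length. The share of islands that held a region went from 2.05% under 3 kb (41 of 1996, exact 95% binomial interval 1.48 to 2.78, counting error only) to 3.16%, 4.72% and 7.92% in the next classes and 16.5% at 15 kb or more (68 of 412, 13.1 to 20.4). Per megabase of island, however, the number of regions was 14.1 under 3 kb, 9.71 from 3 to under 5 kb and 10.8 at 15 kb or more. Members also lay closer to a neighbouring island, with a median gap of 1201 bp against 2601 bp. The gene paired with a member had a median length of 13755 bp, against 29053 bp for other islands.

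Members covered gene starts far more often than other islands did, and few lay wholly inside their paired gene. The start of the paired gene lay in 205 of 397 members (51.6%), against 1067 of 7845 others (13.6%) and 15.4% of all islands. In a logistic regression over 8174 islands, with island width, gene end, coding status and chromosome as further terms and errors clustered by gene, the odds of holding a region were 5.84 times as high with the gene start inside (95% interval 4.64 to 7.36, adjusted p = 1.51e-50, n = 8174 islands). Each doubling of width went with an odds ratio of 1.61 (1.42 to 1.82). A gene end inside gave 0.985 (0.741 to 1.31, adjusted p = 0.916) and a protein-coding gene 1.45 (0.842 to 2.50, adjusted p = 0.271, n = 8174 islands for both), and neither passed. Chromosomes 13 and X held no member and could not enter the fit. These p-values treat genes as independent and describe positions, not libraries. Narrow regions of the whole list gather at gene starts, which was known from earlier results of these data, so the term is not independent support for that.

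The difference at gene starts was seen in every class of width. Under 3 kb, 20 of 176 islands that covered the start held a region (11.4%), against 21 of 1820 that did not (1.15%). From 5 to under 8 kb the shares were 16.1% and 2.46%, and at 15 kb or more they were 30.1% (40 of 133) and 10.04% (28 of 279). Members that covered both the start and the end numbered 43, those with the start alone 162 and those with the end alone 42.

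**Figure D2:**
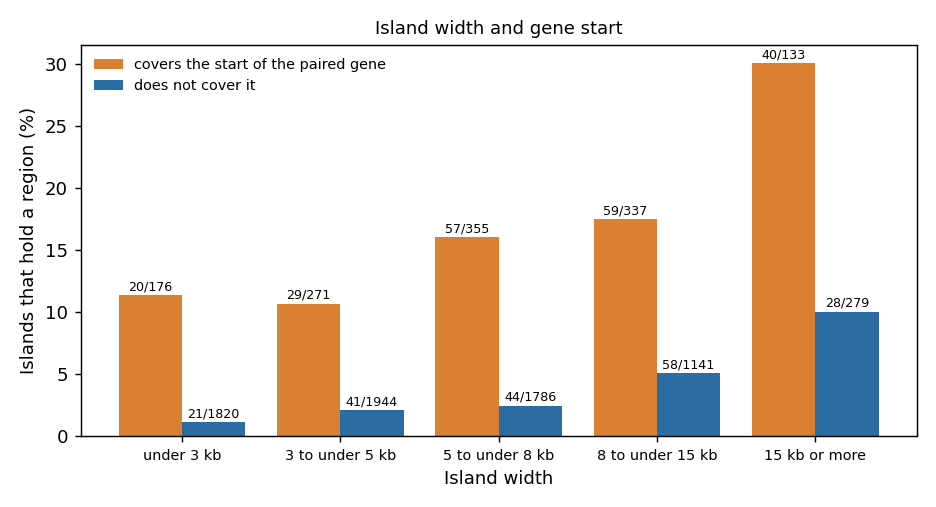
Share of islands that hold a narrow region (y axis, percent) in 5 classes of island width (x axis), for islands that cover the start of their paired gene and those that do not, with counts above each bar. The share is higher with the start inside in all 5 classes, from 11.4% against 1.15% under 3 kb to 30.1% against 10.04% at 15 kb or more.

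Islands wholly inside their paired gene were the most common kind in the list and the rarest among members. Of 3868 such islands, 20 held a region (0.517%, exact 95% binomial interval 0.316 to 0.797), and they were 5.04% of members against 49.1% of other islands. Islands upstream of their gene held one in 5.52% of cases (56 islands) and islands downstream in 5.73% (74). By width, from under 3 kb upwards, the inside islands held a region in 4 of 1154, 6 of 1122, 6 of 969, 4 of 521 and 0 of 102 cases. Islands outside the paired gene did so in 17 of 588, 33 of 651, 30 of 577, 34 of 402 and 16 of 87. Among the 20 were islands in Ntn1, a guidance cue gene, with 2 regions on chromosome 11 from 68198900 to 68199400, and in Jph3, a junctophilin gene, also with 2. Those in Src, a tyrosine kinase gene, Irx3, a homeobox gene, and Nrip1, a nuclear receptor corepressor gene, had 1 each. Even among the 20, 5 had a region within 1 kb of the gene start: Hunk at 259 bp, Tsc22d1 at 273 bp, Ap1g2 at 330 bp, Fam20c at 466 bp and Ntn1 at 978 bp. The genes of these sentences other than Ntn1 were picked after their values were seen.

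**Figure D3:**
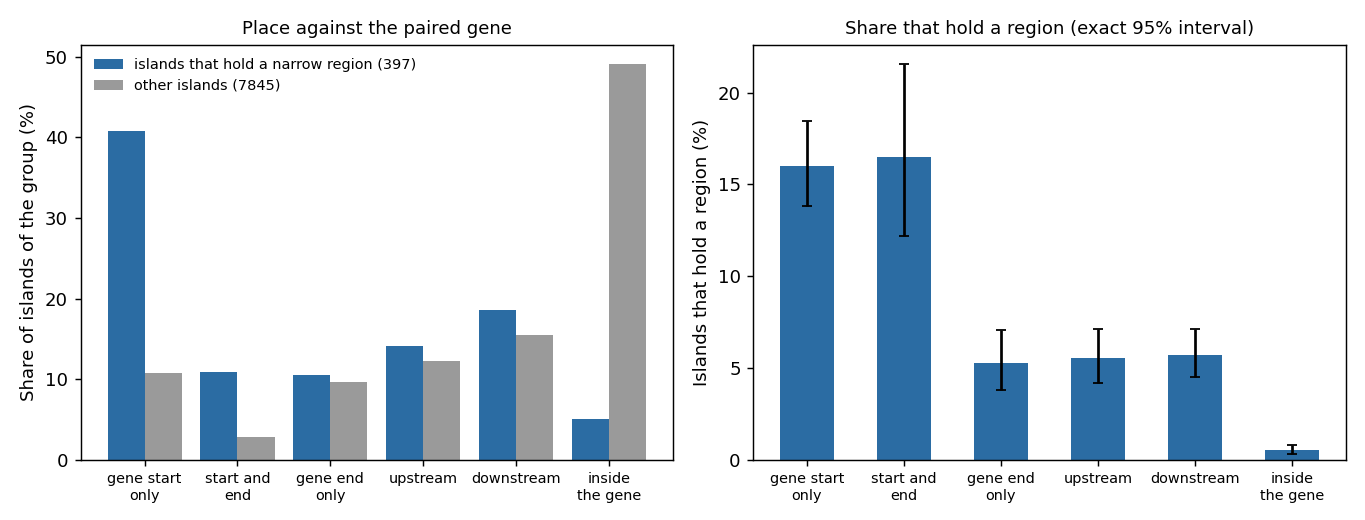
Left, share of islands (y axis, percent) by their place against the paired gene, for the 397 islands that hold a narrow region and the 7845 others; right, share of the islands at each place that hold a region, with exact 95% binomial intervals. Islands that cover a gene start reach 16.02% and 16.5%, those at the gene end or outside the gene 5.27% to 5.73%, and those inside the gene 0.517%.

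Within islands that covered a gene start, the narrow regions lay at the start itself. Of 272 such regions, 219 (80.5%) had their midpoint within 1 kb, in 176 of the 205 islands, and 172 lay on the gene side. The first kilobase of the gene held 142 and the kilobase before it 77, while no other kilobase out to 5 kb held more than 11. Among the 207 regions with positions rounded to 100 bp or less, 170 (82.1%) were within 1 kb, and the median lay 163 bp into the gene (quartiles -151 and 515.5 bp). Over all 522 pairs, 285 regions (54.6%) lay in the central part of the island that makes up 50% of its width. Grhl2, a transcription factor gene of epithelial cells, had a region centred 110 bp inside the gene, Plxnd1, a semaphorin receptor gene, 23 bp inside and Wnt7a, a ligand gene, 37 bp before it (signed -37 bp). The position at Plxnd1 is rounded to 1000 bp, so the side on which it lies is uncertain.

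**Figure D4:**
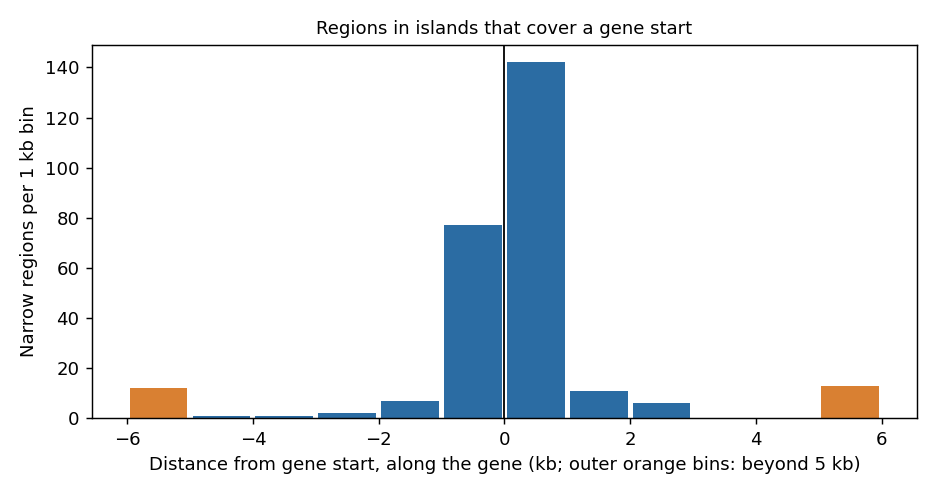
Number of narrow regions (y axis) by distance of their midpoint from the gene start along the gene (x axis, kb, bins of 1 kb, outer bins beyond 5 kb), for the 272 regions in islands that cover the start of their paired gene. The bins on either side of the start hold 77 and 142 regions.

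The gene paired with an island and the gene nearest its region were often different. Each island is paired with 1 gene, while the narrow list names the nearest gene for each region, and they matched in 283 of 522 pairs (54.2%). In islands with only the gene start inside, 173 of 211 pairs matched (82.0%), and inside genes all 22 did. In the 130 members outside their paired gene, 145 of 167 regions (86.8%) were nearest to another gene, and 118 of those overlapped that other gene by the deposited wording. Such wording was common throughout, so the count of 118 is not particular to these members. Of all 1704 regions, 659 were contained in their nearest gene, 421 lay in an intron and 213 overlapped it in part. Among the 521 held regions it was 235, 123 and 62. The island paired with Pias4, a SUMO ligase gene, held 4 regions within Zbtb7a, which encodes a transcriptional repressor. The island paired with Timm44, a mitochondrial import gene, held 5, of which 3 were nearest to Map2k7, a kinase gene of the JNK cascade, and 2 to Ctxn1. The 3 regions in the island of Sema4g, a semaphorin gene, were nearest to Mrpl43 and Peo1. A start of any gene named in the island list lay in 239 members (60.2%) and in 15.5% of the others.

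Members were unevenly spread over chromosomes, and most frequent where the listed gene positions equal those of GRCm38. Chromosomes 11, 16, 19 and 8 together held 235 members (59.2%) and 34.5% of the other islands. On chromosome 16, 60 of 398 islands held a region (15.1%, exact 95% binomial interval 11.7 to 18.97), and on chromosome 19, 50 of 403 (12.4%, 9.35 to 16.03). Chromosome 11 gave 84 of 1195 (7.03%), chromosome 8 gave 41 of 949 (4.32%) and chromosome 7 gave 1 of 274 (0.365%). The narrow list was itself uneven, and membership requires one of its regions. Chromosome 16 had 334 of the 1704 regions, of which 92 (27.5%) lay in members, where the whole list had 521 of 1704. On chromosome 19 it was 75 of 129 (58.1%), on 11 it was 97 of 225 (43.1%) and on 8 it was 58 of 155 (37.4%). Positions were compared at whichever end of the paired gene, its start or its end, differed less from GRCm38. Where that difference was under 1 kb, 126 of 684 islands held a region (18.4%, 15.6 to 21.5). In the classes from 10 kb upwards the share was between 2.28% and 4.74%. Within chromosomes the split was widest on chromosomes 19 and 8 of the 4 compared: on chromosome 19, 45 of 163 islands (27.6%) with equal positions held a region and 5 of 240 (2.08%) with others, and on chromosome 8 it was 18 of 130 (13.8%) against 23 of 819 (2.81%). On chromosome 16 the shares were 16.1% (57 of 353) and 6.67% (3 of 45), with exact intervals that overlap, and on chromosome 17 they were 1 of 18 and 17 of 497, which few islands with equal positions leave imprecise. With a term for equal positions in the logistic regression, its odds ratio was 8.67 (5.52 to 13.6), and that of the gene start was 6.18. The gene start also stood out among paired genes with equal positions alone, with an odds ratio of 10.7 (6.06 to 18.97, 676 islands).

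**Figure D5:**
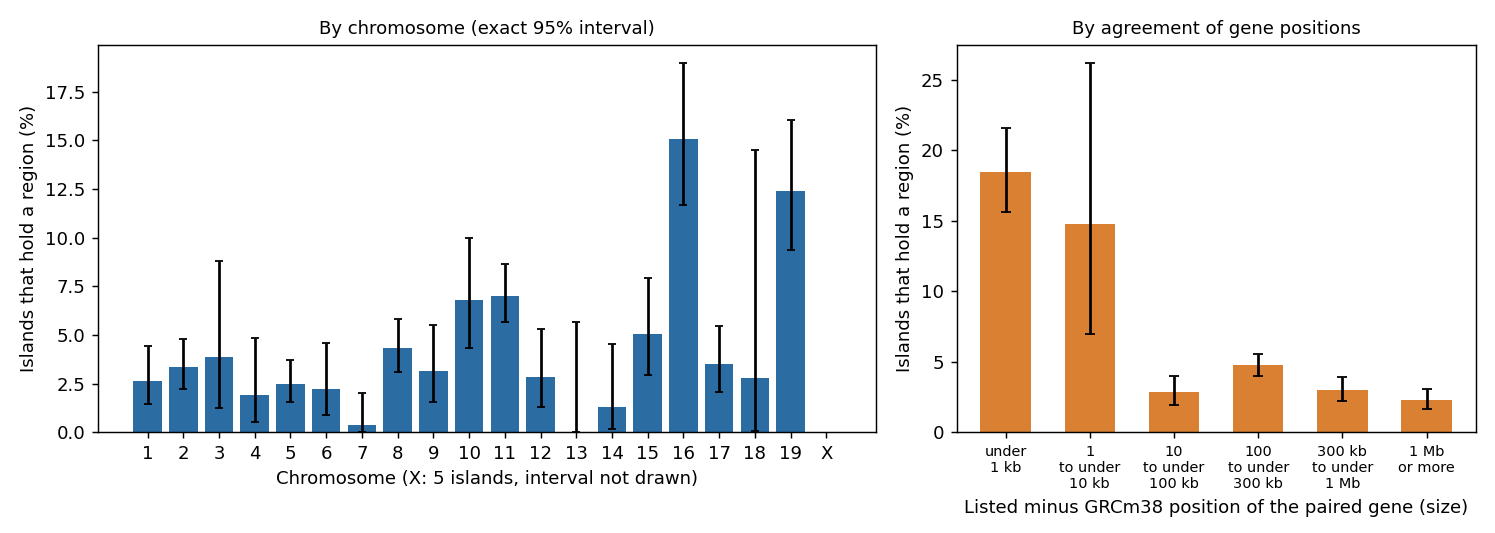
Share of islands that hold a narrow region (y axes, percent, exact 95% binomial intervals), on the left by chromosome and on the right by the size of the difference between the listed and the GRCm38 position of the paired gene. Chromosomes 16 (15.1%) and 19 (12.4%) stand highest, and islands whose genes differ by under 1 kb reach 18.4%, against 2.28% to 4.74% from 10 kb upwards.

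The listed and GRCm38 starts of the paired protein-coding genes were set side by side. These genes are in the list because an island was paired with them, so coverage of their listed starts is in part fixed by that choice. Where the starts differed by over 20 kb between the lists and GRCm38 (2751 genes), an island covered 36.2% of the listed starts and 11.4% of the GRCm38 starts. Where they differed by under 1 kb (223 genes), an island covered 44.8%. Narrow regions lay within 1 kb of the listed start at 8.72% of the former genes and at 46.6% of the latter, and within 1 kb of the GRCm38 start at 1.20% of the former. The labels name mm10, and positions are given as deposited with their build unknown. Narrow regions were scarcer at starts where the coordinates differ. Why they were scarcer was not tested, and an island outside the 397 is not shown to lack narrow enrichment.

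Islands with 4 or more regions numbered 9. The island at the end of Plec, which encodes the cytoskeletal linker plectin, spanned chromosome 15 from 76000000 to 76009999 and held 6 regions, the first from 76002700 to 76003100 and the last from 76007400 to 76007800. Its regions all lay within Plec, the nearest 54208 bp from the listed start. Beside it, 31400 bp paired with the microRNA gene Mir1942 held 2 more regions within Plec. Ovol1, which encodes a transcription factor of epithelial cells, was paired with 18200 bp on chromosome 19, from 5555600 to 5573799, holding 5 regions. Of these, 3 were nearest to Ovol1, the closest from 5560410 to 5560580 across the gene start, and 2 were nearest to Ap5b1. Irs1 had 4 regions in 6600 bp between 82287200 and 82288400 on chromosome 1, 2 of them inside the gene and 2 before it, 85 and 285 bp upstream by the deposited distances. Cdk6 had 4 in 3600 bp on chromosome 5 from 3341400 to 3344999. Its regions ran from 3342710 to 3344610, with 3 upstream of the gene and the last across the listed start at 3344311.

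Other dense islands lay away from the start of their paired gene. On chromosome 19, the island over the end of Ltbp3, a gene for a binding protein of the inactive TGF-beta complex, held 4 regions between 5757120 and 5758090. A further 2 regions within Ltbp3 lay in an island paired with Znrd2. Ptprs, a receptor tyrosine phosphatase gene, had 4 regions between 56613300 and 56616000 on chromosome 17. The island stood upstream of the paired transcript, while the narrow list placed 3 of them in an intron of Ptprs. The island of 6600 bp paired with Rin1, a Ras effector gene, held 2 regions within B4gat1 and 2 at Brms1, which encodes a metastasis suppressor. Klhl22, an adaptor gene of a ubiquitin ligase, was paired with 3 members on chromosome 16, of which 1 held a region in its own intron, 537 bp into the gene. The other 2 held 5 regions nearest to Scarf2, a scavenger receptor gene, and an island paired with Scarf2 held a sixth region nearest to it. Cnih2, which encodes an AMPA receptor auxiliary subunit, was likewise paired with 3 members on chromosome 19, and their regions were nearest to Tmem151a and Yif1a.

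The 5 widest members held from 1 to 3 regions each. Triobp was paired with 60000 bp on chromosome 15 from 78781200 to 78841199, with regions from 78798100 to 78798200 and from 78813100 to 78813200. Both lay before the listed start (midpoints at signed distances of -15335 and -335 bp), while the narrow list placed them within the gene. Tns3, which encodes the focal adhesion protein tensin-3, had 48800 bp with a region from 8564200 to 8564240 on chromosome 11, centred 318 bp inside the gene. Chmp6, a gene of the ESCRT-III complex, had 48600 bp with a region upstream of Baiap2. Pgs1, a gene of cardiolipin synthesis, had 42800 bp with a region partly over the gene, rounded to 1000 bp. Tmem186 had 44800 bp on chromosome 16 with regions nearest to Tmem186, Pmm2 and Carhsp1. The narrowest members spanned 600 bp at Kansl1, a gene of an acetyltransferase complex, and 1000 bp at the noncoding gene 4732490B19Rik and at the homeobox gene Mkx. Each of these 3 held 1 region. At Kansl1 and 4732490B19Rik it was a position rounded to 1000 bp, so its overlap with so narrow an island is uncertain.

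For gene lists, the background is the share of paired genes with a member island: 371 of 4020 (9.23%). Of 659 genes on 21 lists, 264 were paired with an island and 37 with a member. The lists were chosen with earlier results known, and no test was run on them. Insulin and Akt signalling had members at 3 of 15 genes with an island: the receptor gene Insr and the adaptor genes Irs1 and Irs2. Insr had a region from 3279070 to 3279550 on chromosome 8, inside the gene with its midpoint 307 bp from the start. Irs2 was covered at its start by 10600 bp holding 3 regions, of which 2 were nearest to 9530052E02Rik, and a further member lay downstream of it. The receptor gene Igf1r and the kinase genes Pik3cd, Akt2 and Mtor were among those paired with islands that held none.

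In IL6, JAK and STAT signalling it was 3 of 15 genes with an island: the inhibitor genes Socs1 and Socs3 and the transcription factor gene Stat5a. The inhibitor genes Socs2, Socs5, Socs7 and Cish had islands without a region. Socs1 had 2 regions in 9000 bp on chromosome 16, from 10784400 to 10785000 within the gene and from 10785700 to 10786200 before it. Socs3 had 2 positions, 117825000 and 117831000, on chromosome 11, rounded to 1000 bp and lying downstream and upstream of this short gene. In Wnt signalling 4 of 25 had a member, the receptor genes Fzd1, Fzd5 and Fzd9 and the ligand gene Wnt7a, while 21 others had islands without a region, among them the receptor genes Fzd2, Fzd7 and Lrp5 and the inhibitor genes Axin1 and Axin2. Fzd1 had 2 regions within the gene, from 4756570 to 4756750 and from 4756870 to 4757290 on chromosome 5. In Notch signalling it was 2 of 17 (11.8%). Notch1 had 3 regions within 16800 bp, the closest centred 242 bp inside the gene, and its target Hes1, a repressor gene, had 1 from 30066400 to 30067000 on chromosome 16. The receptor genes Notch2, Notch3 and Notch4 and the ligand genes Jag1, Jag2 and Dll4 had islands without a region.

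Among epithelial, matrix and cytoskeleton genes, all those paired with a member had one over the gene start except Plec. Epithelial identity and epithelial-mesenchymal transition had 3 of 17 (17.6%): Ovol1 and Grhl2, and Jup, which encodes the junction protein plakoglobin, in an island of 18400 bp. Cdh1, the E-cadherin gene, Epcam and Krt8 had islands without a region. Collagens, laminins and integrins had 3 of 17 (17.6%). Col4a1, a basement membrane collagen gene, had 2 regions in 7200 bp over its start, 1 of them nearest to its divergent neighbour Col4a2, and a further member downstream. Itga3 and Lama5, which encode an integrin and a laminin chain, had 1 each. Cytoskeleton and adhesion linkers had 3 of 21 (14.3%) in Plec, Tns3 and Arhgap23. Semaphorins, plexins, Eph receptors and ephrins had the highest share, 6 of 19 (31.6%). By the nearest gene of the region it was 3 genes, since the regions in islands paired with Sema4g, Epha1 and Sema3b were nearest to other genes, such as the zyxin gene Zyx for Epha1.

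Chromatin regulators and corepressors had 3 of 16 (18.8%): Ing1, a histone mark reader gene, the remodeller gene Chd4 and the acetyl-lysine reader gene Brd2. Ing1 had 2 regions in 2800 bp on chromosome 8, from 11555100 to 11555300 and from 11555500 to 11555900. Immediate early and growth transcription factors had 2 of 17 (11.8%), the small Maf genes Maff and Mafg, and the MAP kinase cascade had 2 of 17 (11.8%), the phosphatase gene Dusp5 and the kinase gene Map3k11. The region in the island paired with Map3k11 lay within Pcnxl3 by the narrow list, so by nearest gene only Dusp5 was left. Tumour suppressors had 1 of 11 (9.09%), Cdkn1b, with a position downstream of the gene. TGF-beta and BMP signalling had 1 of 10, Ltbp3. No member was paired with a gene of NF-kB signalling (0 of 14), the DNA methylation machinery (0 of 7), developmental transcription factors (0 of 7), imprinted genes (0 of 5) or housekeeping genes (0 of 7). Among markers of host cells it was 0 of 3 for lung epithelium, 0 of 1 for immune cells and 1 of 7 for endothelium and stroma. That gene was Flt1, a VEGF receptor gene, with a region across its start, rounded to 1000 bp, in an island of 3000 bp.

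Named by the gene nearest each region, 47 list genes were found in members, of 104 nearest to any narrow region. Over all genes it was 407 of 1391 (29.3%). The following genes were named after these values were seen. Rela, an NF-kB subunit gene, had a region from 5637160 to 5637330 on chromosome 19, which the narrow list puts 160 bp before the gene, in an island paired with Sipa1. Mbd3, a subunit gene of the NuRD complex, had 2 regions in an island paired with Tcf3, and Gadd45b, linked to DNA demethylation, had 1 in an island paired with Lmnb2. Fosl1, which encodes the AP-1 subunit Fra-1, had 2 regions, the first from 5447890 to 5448410 on chromosome 19, in an island paired with Fibp. In the DNA methylation machinery this made 2 of 5 genes nearest to a region, while Dnmt3a, Kdm2b and Uhrf2 were nearest only to regions outside members. In NF-kB signalling it was 1 of 5, with Birc2, Birc3, Nfkbiz and Tnfaip3 nearest only to regions outside members. By the paired gene the DNA methylation machinery had 0 of 7, where the share over all paired genes was 9.23%. These small counts have unlike backgrounds and cannot be set against each other.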

How the data were processed

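The values used are base positions and distances, deposited by the authors as 2 lists that cover all libraries together. The submitters' processing notes name Bowtie2 (given as 2.10) with mm10 for alignment, and MACS (given as 1.4) and SICER for calling. The MACS list is named for MACS2, which could not be settled, and no source used here states whether libraries were pooled. Per the file headers, neither list holds a count, score or p-value. The MACS list had 4304 lines; identical regions were counted once, and the 2 ends deposited as "?" took the value of their start, which left 1704 regions.

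Genes were matched to RefSeq GRCm38.p6 by accession, symbol or unique synonym (99.95% of islands), and so were the names of 23 islands that had turned into dates. An upstream or downstream island lies outside the listed transcript. Shares carry exact binomial intervals (scipy 1.17.1). A logistic regression (statsmodels 0.14.6, errors clustered by gene) was fitted over all islands, with Benjamini-Hochberg adjustment over 3 gene terms. It was also run on simulated data. These drew each island on its own from a model of the same form, so they cannot test dependence between neighbouring islands or islands of a gene. Named genes followed a rule: islands with 4 or more regions, the 5 widest and 3 narrowest, genes with 3 or more members, up to 4 members per gene list, and islands at the edge of the rule. Members and lists were chosen with earlier results of these data known. Alternatives changed the overlap, the rounding, the chromosomes, the terms and the gene positions.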

Additional observations from a re-analysis of the deposited data

How the results depend on the processing

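The odds ratio of a gene start inside the island stayed past the threshold under all 12 alternatives tried for it, between 4.39 with any protein-coding start of GRCm38, from which chromosome 18 was left out, and 10.7 with equal gene positions alone. The median width of members was 7200 or 7400 bp under 5 alternatives. The number of members ranged from 256, with at least 100 bp shared, to 417, with regions widened by their rounding. The odds ratio of a gene end turned to 1.405 (adjusted p = 0.0254, n = 8174 islands) without the width term and did not pass under the other 11 alternatives. That of a protein-coding gene passed at 4.34 (adjusted p = 0.0212, n = 676 islands) with equal gene positions alone, and its cause was not tested. Genes of the lists with a member fell from 37 to 23 when the nearest protein-coding gene of GRCm38 took the place of the paired gene. This alternative and that of any protein-coding start of GRCm38 used island positions as deposited, which mostly do not belong to GRCm38. Neither can therefore show how far the pairing or the odds ratio holds. The start of any listed gene, the term for equal positions and the gene nearest each region were chosen after seeing the data. No stricter threshold could be tried, since the lists hold no score. No paired analysis was possible because neither list separates the libraries, and none could be left out.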
